A study of Oryza sativa with 6 samples.

Results

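The genes described here are those of jasmonate synthesis and of the jasmonate response in rice shoots, together with the other members of the TIFY family. They were found by name, as every probe set with 1 gene whose annotated names include LOX, AOS, AOC, OPR, TIFY, JAZ, JAR or COI as a whole name. The search found 38 genes, read by 43 probe sets, of the 17905 genes that have a probe set of their own on this Affymetrix rice array. Of these, 17 are synthesis genes (5 lipoxygenases, 4 allene oxide synthases, 1 allene oxide cyclase and 7 members of the OPDA reductase family). The other 21 are 1 gene for the conjugating enzyme, 3 for receptors, 13 for JAZ repressors and 4 TIFY genes without a JAZ name.

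Seedlings of the dst mutant line (n = 3 biological replicates) were grown for 25 days, and their shoots were compared with shoots of the wild type, the japonica cultivar Zhonghua 11 (n = 3). Both were grown in a chamber with a light and a dark phase, and no stress treatment is named. The labels give neither the allele nor the parent cultivar of the mutant. DST, a zinc finger protein, is known as a regulator of stomatal closure through hydrogen peroxide, and its own transcript was not analysed here.

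Jasmonate is a lipid hormone made from fatty acids of the chloroplast. A lipoxygenase, an allene oxide synthase and an allene oxide cyclase act in turn to give oxophytodienoic acid (OPDA), which an OPDA reductase in the peroxisome carries further. The enzyme JAR1 joins jasmonate to isoleucine, and the conjugate binds the F-box protein COI1 together with a JAZ protein. JAZ proteins of the TIFY family repress jasmonate-responsive genes until they are degraded after this binding, and many JAZ genes are themselves rapidly induced by jasmonate, so that their transcripts are widely used as a readout of the pathway. In grasses jasmonate is known for roles in wounding and defence, in light responses of seedlings and in the form of the spikelet.

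Each sample was read on its own array, so that precision is limited by the number of arrays. Per array, the rice probe sets had a median signal between 123.9 and 131.3 on the dst arrays and between 117.6 and 140.9 on the wild-type arrays. Of 8 tested green shoot markers, genes for photosystem proteins and Rubisco activase among them, none passed, and their summed signal, with that of a ninth below the filter, was 159390 to 186317 in dst and 155635 to 196043 in the wild type. Of 4 root markers, 2 were tested, with neither passing, and their summed signal overlapped between the lines. Among the green shoot markers, the photosystem I gene OsPSAG read 4899, 5573 and 5135 in dst and 6585, 8327 and 7350 in the wild type. Its groups stood apart at a log2 change, dst minus wild type, of -0.51 (SE 0.11, adjusted p 0.0977 in limma). The dimmer OsPSAG probe set overlapped at -0.23 (SE 0.22). None of the 3 meristem markers passed. Of these, OSH1 read 658.4, 902.2 and 689.1 in dst and 495.7, 193.7 and 99.9 in the wild type. Its groups stood apart at a log2 change of 1.81 (SE 0.47, adjusted p 0.162 in limma). Those of its dimmer probe set also stood apart, at 1.66 (SE 0.45). OSH71 and OSH43 overlapped between the lines, with changes of 0.87 and -0.30, and a dimmer OSH43 probe set overlapped at -1.29 (SE 0.69). The part of OsPSAG and of the meristem markers in the results below was not tested, and in shoots fewer cells of a type and less RNA per cell cannot be told apart. The log2 ratio of 3' to 5' signal of a pair of GAPDH controls was 1.01 to 1.36 in dst and 0.35 to 0.62 in the wild type, while the actin ratio overlapped, at 1.81 to 2.01 in dst and 1.83 to 2.05 in the wild type. A second pair of GAPDH controls leaned the other way, at 1.16 to 2.83 in dst and 2.12 to 4.57 in the wild type. The ef1a ratio overlapped, at -3.98 to -1.56 in dst and -2.97 to -1.39 in the wild type. The part of these ratios in the results was not tested.

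No gene of the pathway passed an adjusted p of 0.05 in either direction. Of the 38 genes, 30 had a mean signal high enough to be tested (above the 40th percentile of all rice probe sets, a signal of 70.5). In limma, 0 of the 30 passed after adjustment over all 34316 tested probe sets, of which 0.924% passed. With 1 probe set for each of the 16013 genes tested on the array, 0.987% passed. At an unadjusted p under 0.05 there were 2 of 30, the cyclase gene OsAOC and the reductase gene OsOPR1, where 12.6% of all tested genes had such a p. The lines did not overlap in 3 of 30 genes, against 19.2% of all tested genes. In 2 of these 3 all dst values were below the wild type (7.9% of all tested genes) and in 1 all were above it (11.3%). The mean was higher in dst in 10 of 30, and in 54.3% of all tested genes. The median log2 change, dst minus wild type, was -0.07 for the 12 tested synthesis genes and also -0.07 for the 18 tested signalling genes, beside 0.02 over all genes tested.

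Of the 3 genes whose lines did not overlap, the one with the largest change was OsAOC (LOC4333201), the gene of allene oxide cyclase, whose loss gives the jasmonate-deficient rice mutants known as cpm2 and hebiba. Its signal was 3953, 2572 and 2434 on the 3 dst arrays, against 5176, 4874 and 4452 on the 3 wild-type arrays. Every dst value was below every wild-type value, and dst replicate 1 stood nearest to the wild type. The means were 2986 ± 840 in dst and 4834 ± 364 in the wild type (SD, n = 3 each), a log2 change of -0.73 ± 0.18 (SE, as for every log2 change below) with a 95% interval of -1.12 to -0.33. The adjusted p was 0.124 in limma, so OsAOC did not pass. Without dst replicate 1, the array whose value lay closest to the wild type, the change was -0.95 (adjusted p 0.0214 in limma), which passes. Leaving out any other array gave changes between -0.79 and -0.60, none of which passed, with a highest adjusted p of 0.381.

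**Figure D1:**
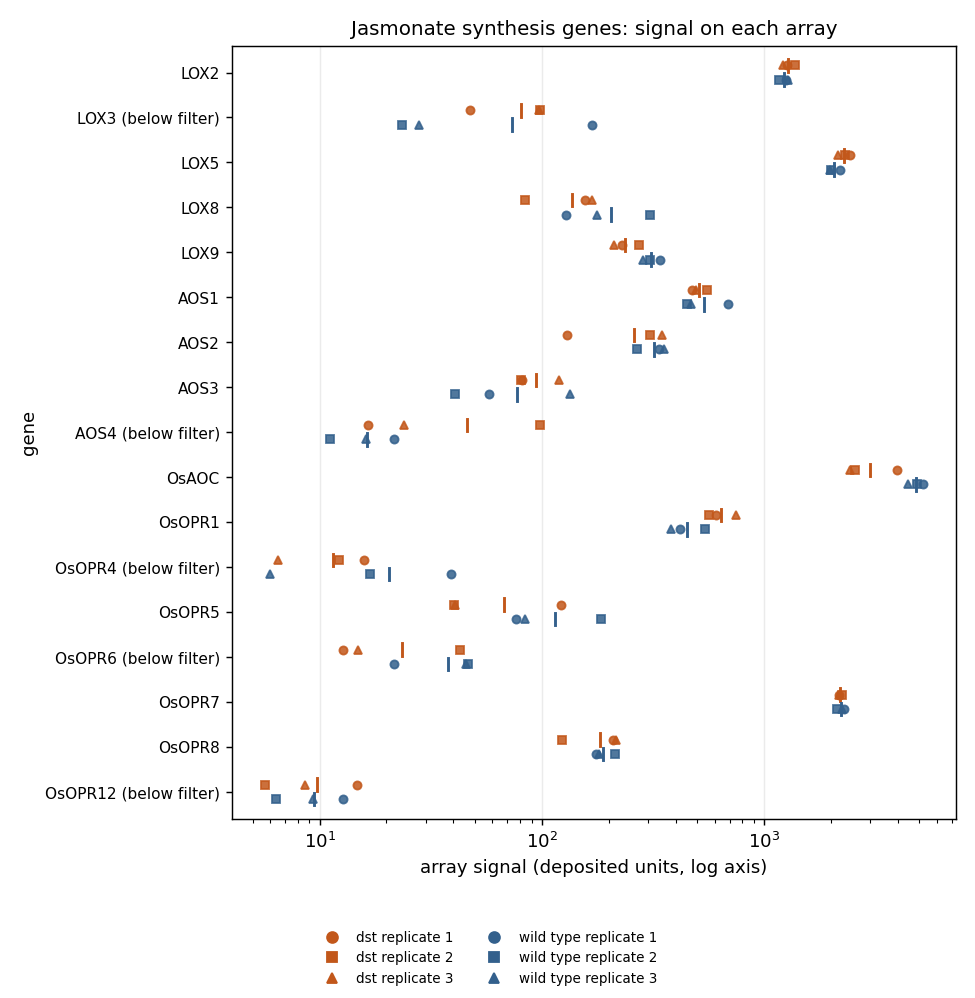
Signal of the 17 jasmonate synthesis genes on each array (x axis, deposited signal units on a log axis), with 1 row per gene, dst in orange above wild type in blue, 1 marker shape per replicate number and a vertical bar at the mean of 3 arrays. The dst markers of OsAOC and LOX9 all lie left of their wild-type markers, those of OsOPR1 all lie right of them, and the markers of the other tested genes overlap.

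A lipoxygenase opens the pathway by adding oxygen to fatty acids. The lipoxygenase genes were taken by name, so not every one need serve jasmonate. None of the 4 tested passed in either direction. LOX9 (LOC4345994), also named CM-LOX2, read 228.6, 273.9 and 211.3 in dst and 341.7, 307.8 and 285.4 in the wild type. Its groups did not overlap, and the log2 change was -0.39 ± 0.20 (adjusted p 0.550 in limma). LOX8, or CM-LOX1, lies directly beside LOX9 in the gene order and read 156.4, 84.4 and 168.1 in dst, against 128.7, 306.8 and 177.0 in the wild type. Its values overlapped, with wild-type replicate 2 high and dst replicate 2 low, and its 95% interval of -1.45 to 0.35 was wide. LOX5 leaned the other way. It read 2444, 2322 and 2143 in dst and 2189, 2013 and 1987 in the wild type, where dst replicate 3 fell below wild-type replicate 1, and its change was 0.16 ± 0.11 (adjusted p 0.679 in limma). The change of LOX2 was 0.06 ± 0.11, with means of 1289 ± 84.1 in dst and 1233 ± 58.6 in the wild type (SD, n = 3 each). LOX3, named r9-LOX1 as a lipoxygenase of the kind that feeds other oxylipins, was below the filter, as were the dimmer probe sets of LOX9, which read between 2.5 and 30.6.

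Allene oxide synthase makes the substrate of the cyclase, and none of the 3 tested genes carrying its name passed. AOS1 (LOC4334233), also named PRECOCIOUS, read 475.3, 555.8 and 494.7 in dst and 685.4, 451.3 and 471.2 in the wild type, with a log2 change of -0.05 ± 0.19. Its values overlapped, and wild-type replicate 1 was the highest. AOS2 read 130.2, 306.0 and 347.7 in dst, against 338.4, 267.0 and 356.7 in the wild type, so that its change of -0.41 ± 0.35 came with dst replicate 1 far below the other 5 arrays. Without that array the sign turned, at a change of 0.04. AOS3 was close to the filter and measured 0.44 ± 0.54, and its direct neighbour AOS4 was below the filter.

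The OPDA reductase family holds the reductase of jasmonate synthesis and several relatives. OsOPR7 (LOC4345762), known as the rice enzyme that reduces OPDA for jasmonate and also named OG1 for the opened glume of its mutant, read 2187, 2245 and 2170 in dst and 2298, 2136 and 2251 in the wild type. The groups overlapped almost wholly, and the log2 change of -0.02 had a 95% interval of -0.24 to 0.20. OsOPR1 (LOC4340490), which belongs to the branch of the family not tied to jasmonate synthesis, read 605.3, 566.6 and 746.4 in dst, against 418.5, 544.9 and 382.7 in the wild type. Here all dst values stood above all wild-type values, although dst replicate 2 and wild-type replicate 2 were close. The change was 0.52 ± 0.18, a 1.43-fold higher level in dst (adjusted p 0.342 in limma). The annotation joins the names OsOPR1 and OsOPR2 in this single gene, so the probe set may read both.

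OsOPR1 lies in a run of neighbouring reductase genes, of which OsOPR6, OsOPR5 and OsOPR4 follow each other directly and OsOPR1 comes after 1 further gene. In this run OsOPR4 and OsOPR6 were below the filter, and OsOPR5 stood just above it. OsOPR5 read 121.8, 40.1 and 40.5 in dst and 76.4, 185.0 and 83.8 in the wild type. Its replicates differed among themselves by more than the lines did, and its change of -0.86 ± 0.60 did not pass (adjusted p 0.693 in limma). With 1 array left out it lay between -1.39 and -0.46. A dimmer OsOPR5 probe set, below the filter, read between 9.7 and 18.1. OsOPR8 measured -0.09 ± 0.29.

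Conjugation and perception showed narrow spreads and no call. OsJAR1 (LOC4339756), the gene of the enzyme that makes the active isoleucine conjugate, read 2784, 2718 and 2223 in dst and 2752, 3062 and 2887 in the wild type. Its change was -0.18 ± 0.12, and dst replicate 3 was the lowest array while the other dst values fell near the lowest wild-type value. The receptor gene OsCOI1a (LOC4324818) read 2738, 2891 and 3509 in dst and 2236, 2570 and 3137 in the wild type, a change of 0.21 ± 0.15. In both lines the third array was its highest.

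OsCOI1b (LOC4338955) read 4193, 4887 and 4677 in dst and 4228, 3769 and 4523 in the wild type, with a change of 0.14 ± 0.11. OsCOI2 (LOC4332349), the third receptor gene, read 2338, 2478 and 2324 in dst and 2302, 2472 and 2275 in the wild type. The values of OsCOI2 were almost the same in both lines, at a change of 0.02 with a 95% interval of -0.21 to 0.24, whose sign turned with median centring and in some fits with 1 array left out. All 3 receptor genes had a higher mean in dst. None of them had groups that stood apart, and adjusted p lay between 0.702 and 0.970 in limma.

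**Figure D2:**
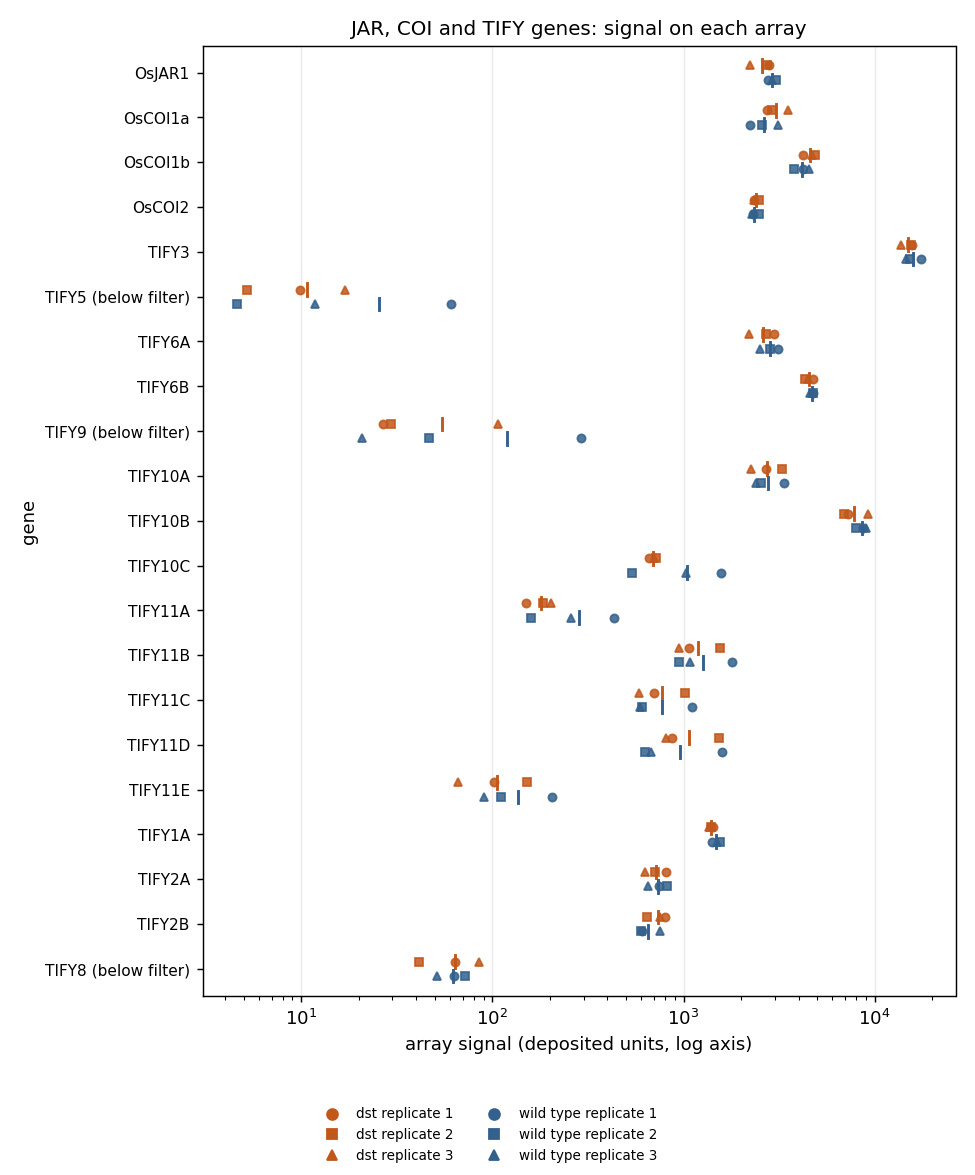
Signal of the 21 conjugation, receptor and TIFY genes on each array (x axis, deposited signal units on a log axis), with 1 row per gene, dst in orange above wild type in blue, 1 marker shape per replicate number and a vertical bar at the mean of 3 arrays. The 2 lines overlap in every row, and the circle of wild-type replicate 1 lies to the right in most JAZ rows.

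Among the JAZ repressors, 11 of 13 genes were tested, none passed, and in none of the 11 were the lines apart, against 19.2% of all tested genes. Their median log2 change was -0.08, with 9 of 11 lower in dst on the mean. With 1 array left out the count moved between 6 and 11 of 11. It was 6 of 11 without wild-type replicate 1 (median -0.0014) and also 6 of 11 without dst replicate 3 (median -0.0154), and it was 11 of 11 without dst replicate 2 and without wild-type replicate 2. TIFY3 (LOC4337240), or OsJAZ1, known as EG2 for the extra glume of its mutant, read 15683, 15511 and 13699 in dst, against 17522, 15256 and 14653 in the wild type. Its change was -0.08 with a 95% interval of -0.33 to 0.17. The changes of TIFY6A, TIFY6B, TIFY10A and TIFY10B lay between -0.15 and -0.01, with adjusted p from 0.746 to 0.987 in limma, and a dimmer probe set of TIFY6B gave -0.13 ± 0.18.

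The widest differences of the 11 tested JAZ genes were in TIFY11A and TIFY10C, and in both the wild-type arrays were unequal. TIFY11A (LOC4331832) read 150.7, 183.4 and 201.7 in dst and 435.0, 159.5 and 258.0 in the wild type, a change of -0.56 ± 0.35 (adjusted p 0.644 in limma). Its change was -0.19 without wild-type replicate 1 and -0.92 without wild-type replicate 2. TIFY10C (LOC4347164) read 662.9, 718.8 and 702.0 in dst, against 1566, 538.9 and 1028 in the wild type. The dst values of TIFY10C were close together and lay inside the wide wild-type range. Its change was -0.46 ± 0.32, and it was -0.10 without wild-type replicate 1 and -0.87 without wild-type replicate 2, with adjusted p of 0.927 and 0.189 in limma.

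TIFY11A, TIFY11C and TIFY11B are direct neighbours in the gene order, and TIFY11E and TIFY11D lie with 2 genes between them. TIFY11B read 1065, 1546 and 945.3 in dst and 1789, 944.0 and 1080 in the wild type, and TIFY11C read 704.6, 1015 and 585.8 in dst and 1112, 609.3 and 589.2 in the wild type. TIFY11D read 867.3, 1530 and 807.5 in dst, against 1582, 629.2 and 678.6 in the wild type. In each of these genes dst replicate 2 and wild-type replicate 1 were the highest arrays, and the log2 changes between the lines were -0.08 ± 0.25, 0.02 ± 0.27 and 0.22 ± 0.36 for TIFY11B, TIFY11C and TIFY11D. TIFY11E, nearer to the filter, had the same pair of arrays on top, at 101.7, 150.9 and 66.2 in dst and 206.3, 110.5 and 90.2 in the wild type. These genes are close relatives and the TIFY11B probe set carries a suffix for probes shared between transcripts, so a signal can hold more than 1 of them. The probe sets of TIFY10A, TIFY5 and TIFY2B carry the same suffix, and that of TIFY6B a similar one. A dimmer probe set of TIFY11B gave -0.34 ± 0.21, with wild-type replicate 1 again the highest.

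Many JAZ genes shared a pattern across single arrays. Wild-type replicate 1 was the highest of the 6 arrays in 9 of 11 tested JAZ genes, where it was the highest in 17.6% of all tested genes. It was also the highest in 22.2% of all tested probe sets and in 4 of 12 tested synthesis genes. The median deviation of the 11 genes from their 6-array mean was 0.58 on the log2 scale on that array, against -0.01 for all tested genes. On the other arrays the median deviation ran from -0.23 to 0.02. TIFY5 and TIFY9, below the filter, also had their highest signal there, which makes 11 of 13. In 5 of 11 tested genes, TIFY10A and the genes TIFY11B to TIFY11E, dst replicate 2 and wild-type replicate 1 were the highest arrays. The synthesis gene AOS1 had the same pair on top. TIFY6B and TIFY10B were the exceptions among the 11, with wild-type replicate 2 and dst replicate 3 as their highest arrays. This pattern was noticed after the values were seen and carries no test, and genes with shared probes need not be separate readings.

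**Figure D3:**
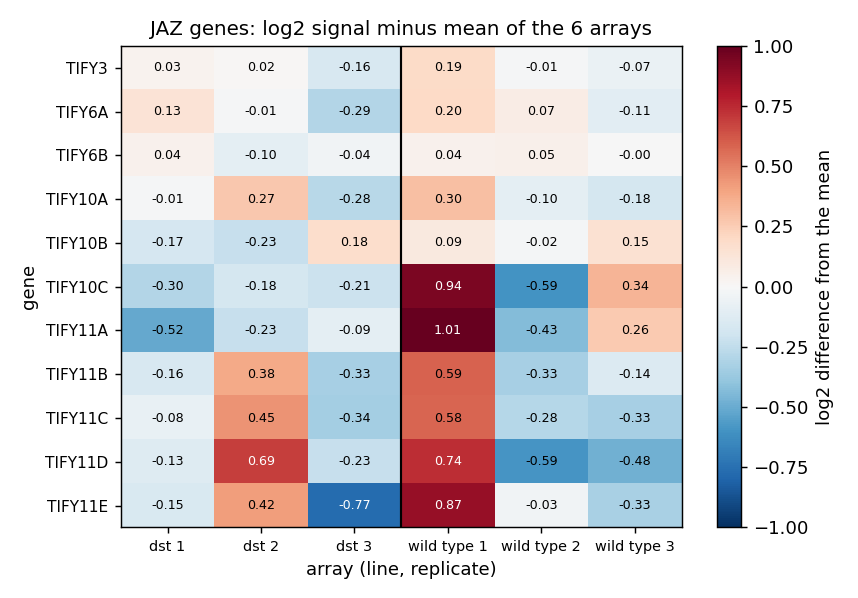
Log2 signal of each tested JAZ gene (rows) on each array (columns, dst left of the line and wild type right of it) minus the mean of the gene over all 6 arrays, with the difference written in each cell and coloured from blue (lower) to red (higher). The column of wild-type replicate 1 is above the mean in every row, by up to 1.01 in TIFY11A, and the column of dst replicate 2 is above it in TIFY10A and TIFY11B to TIFY11E, by at least 0.27, and by 0.02 in TIFY3.

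TIFY1A, TIFY2A and TIFY2B belong to the branch of the family that carries a GATA zinc finger, are named OsGATA18, OsGATA17 and OsGATA20 as well, and are not known as jasmonate repressors. Their log2 range over the 6 arrays was 0.19 in TIFY1A, 0.38 in TIFY2A and 0.43 in TIFY2B. That of the tested JAZ genes ran from 0.14 in TIFY6B to 1.64 in TIFY11E. TIFY1A read 1434, 1387 and 1360 in dst and 1410, 1548 and 1496 in the wild type, with overlapping groups and a change of -0.09 ± 0.11. TIFY2A measured -0.05 ± 0.15 and TIFY2B 0.18 ± 0.15.

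The 8 genes below the filter were LOX3, AOS4, OsOPR4, OsOPR6, OsOPR12, TIFY5, TIFY9 and TIFY8. Their signals lay between 4.6 and 292.2, and their lines overlapped in all 8. In a fit with no filter on low signals, the smallest adjusted p among them was 0.773 in limma. The highest of these signals, 292.2, was that of TIFY9 in wild-type replicate 1, while its other arrays read 26.8, 29.6 and 106.5 in dst and 46.4 and 20.9 in the wild type. No detection calls were used, so it is not known whether such signals stand above background.

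The intervals show how large a change the arrays leave room for. In 21 of 30 tested genes the 95% interval of the log2 change lay within -1 and 1, a 2-fold change either way, and 83.6% of all tested genes had such an interval. These 21 include LOX2, LOX5, OsOPR7, OsJAR1, all 3 receptor genes and TIFY3. In the other 9 the interval reached past a 2-fold change. They were OsAOC, LOX8, AOS2, AOS3, OsOPR5, TIFY10C, TIFY11A, TIFY11D and TIFY11E. Except in OsAOC the interval also held 0, so a change of that size cannot be told from none at this precision. The interval of OsAOC lay below 0, but intervals are not adjusted for the number of probe sets. OsAOC did not pass after adjustment (adjusted p 0.124 in limma).

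**Figure D4:**
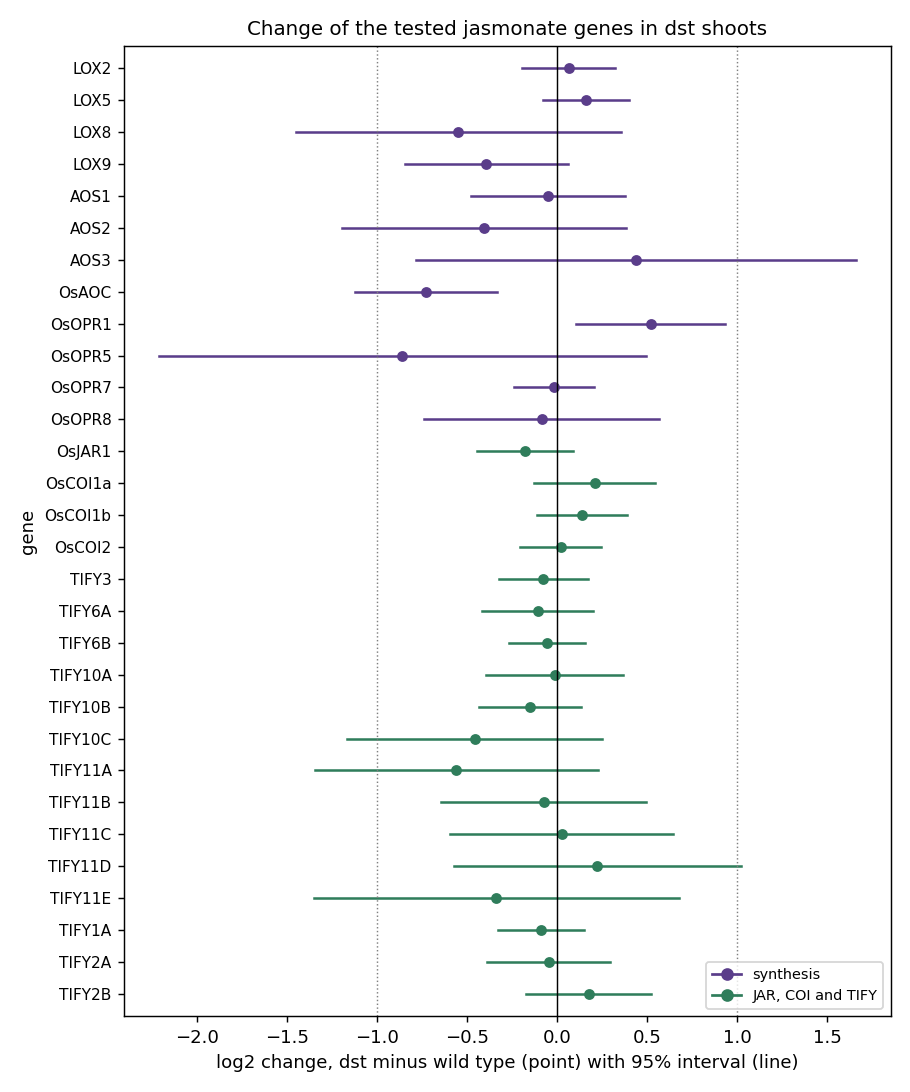
Log2 change, dst minus wild type, of the 30 tested genes (points) with 95% intervals from the limma fit over all tested probe sets (lines), synthesis genes in purple above signalling genes in green, and dotted lines at a 2-fold change. Intervals of 28 genes cross 0; those of OsAOC, at -0.73, and OsOPR1, at 0.52, do not, and neither gene passed after adjustment.

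The wider pathway was read through 16 further genes, taken by name and not by how they moved: GH3 amido synthetases other than OsJAR1, the adaptor NINJA, corepressors of the TOPLESS kind, phospholipases D, the multifunctional protein of peroxisomal beta-oxidation and the transcription factors JAMYB and bHLH148. Of 14 tested, none passed in either direction, beside 0.987% of all tested genes. A higher mean in dst was measured in 8 of 14 (54.3% of all tested genes), and 4 of 14 had an unadjusted p under 0.05 (12.6%). These 4 were GH3.1, JAMYB, GH3.7 (change -0.54 ± 0.22) and PLD2 (0.30 ± 0.13). The lines did not overlap in 3 of 14, against 19.2% of all tested genes. In these 3, GH3.1, GH3.4 and PLD2, all dst values were above the wild type (11.3% of all tested genes). GH3.1, of a family that joins amino acids to hormones and in this branch chiefly to auxin, read 330.2, 355.9 and 306.7 in dst and 240.0, 169.8 and 187.2 in the wild type, a change of 0.75 ± 0.21 with groups apart and an adjusted p of 0.214 in limma. JAMYB, a jasmonate-induced MYB gene, read 163.4, 369.0 and 280.5 in dst, against 532.3, 342.6 and 485.7 in the wild type. Its groups overlapped through dst replicate 2, and its change of -0.80 ± 0.30 had an adjusted p of 0.387 in limma. Among the partners of the JAZ proteins, NINJA1 was at 0.02 ± 0.10 and the corepressor gene TPR3 at -0.03 ± 0.10.

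Downstream, 9 genes named for diterpenoid synthesis or stress output were listed and 5 were tested. They were taken by name, so not every member, CPS1 among them, need be an output of jasmonate. None of the 5 passed, where 0.987% of all tested genes did, and 1 of 5, KSL5, had an unadjusted p under 0.05, against 12.6%. KSL5, of the kaurene synthase-like family, read 203.9, 204.3 and 170.9 in dst and 162.4, 103.4 and 83.6 in the wild type. Its groups stood apart at a change of 0.78 ± 0.32 (adjusted p 0.433 in limma). The lectin gene salT, known to respond to jasmonate and salt, read 6632, 6951 and 5809 in dst, against 8569, 6853 and 6443 in the wild type. Its values overlapped, and its change was -0.17 ± 0.13.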

How the data were processed

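The authors deposited 1 linear signal intensity per probe set and array for 57381 probe sets. Per the labels, total RNA was extracted with Trizol, labelled with biotin and processed by Affymetrix procedures; which software made the values is not stated there. The trimmed mean of each array, leaving out 2% at either end, is 500.1, so the arrays appear to have been scaled before deposit. Signals were floored at 1 before log2. Without the 187 probe sets for controls and reporters, 34316 of 57194 rice probe sets at or above the 40th percentile of mean log2 signal were tested in R 4.3.3 with the package limma 3.58.1 (lmFit and a trended eBayes, group as the sole term), adjusted by Benjamini-Hochberg. The fit was tested on simulated data.

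The brightest probe set stood for a gene. Signals of different probe sets are not compared as levels. Names came from the platform annotation and a RefSeq gene table of ASM3414082v1, used for names and gene order alone. LOX1.1 does not meet the name rule. Of the wider lists and markers, 6 name matches were dropped because the name belongs to another gene family or to OsJAR1. The members and lists were chosen with earlier results of these data known. Described in full are the 5 genes with the smallest p in the synthesis and in the signalling group, the brightest of each and the conjugation and receptor genes; others were added to complete a role. Same-numbered replicates are not known to share a plant or batch: deviations correlated at 0.05, 0.05 and 0.20 across probe sets. P-values rest on the spread between these 3 samples of each line, moderated toward a trend over all tested probe sets. For OsAOC the unadjusted p in limma was 0.0023 with that trend and 0.0147 without it.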

Additional observations from a re-analysis of the deposited data

How the results depend on the processing

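The number of synthesis genes past the threshold was 0, and 1, OsAOC, passed with the replicate block (log2 change -0.73, adjusted p 0.0340 in limma); with 1 array left out the number ranged from 0 to 1. Replicate numbers are not known to pair these samples, so this is a setting and not a paired result. The number was 0 for the signalling genes and both wider lists in every setting run. Over all probe sets the number was 317; array weights gave 532, no variance trend 80, a threshold of 0.01 on the adjusted p 122, and fits that leave out 1 array 118 to 280. With the third arrays as a block, chosen after seeing the data, it was 606. In that fit OsAOC had an adjusted p of 0.0512 in limma and did not pass. The median log2 change of synthesis genes, -0.07, was -0.103 with median centring, -0.0351 with the filter at the 60th percentile and also -0.0351 with the mean over probe sets. It was -0.189 with replicates 1 and 2 only, also chosen after seeing the data, and -0.132 to -0.0093 with 1 array left out. That of the signalling genes, -0.07, ranged from -0.123 to 0.0216 with 1 array left out. OsCOI2 turned to -0.0140 with median centring, and lay between -0.0103 and 0.0561 in the fits without 1 array. Of 268 values of 16 named genes under alternatives, 263 kept direction and call. None of the 16 passed in the main fit, so this count says little about the size of a change. TIFY10C, for example, ranged from -0.87 to -0.10. AOS2, whose sign turned without dst replicate 1, is not among the 16. The cause of these shifts was not tested, except that a stricter threshold lowers a count by construction. Signal over background is not known, which limits folds at low signal.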
